A study of Rattus norvegicus with 15 samples.

Results

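Complement and coagulation are linked cascades of serine proteases, their cofactors, receptors and inhibitors, and this report describes 35 of their genes in the testes of irradiated and control rats. A gene was followed if the platform's table gave it a probe set with that gene symbol alone. That found 30 genes on 45 probe sets, of 14217 genes and 31042 probe sets in all. C2, C4a, C4b, C7 and Cfb were found only on probe sets with several symbols and were not followed. The control group held 10 testis samples, which the source field places before irradiation, and the irradiated group held 5 samples of testes after 6 Gy to the lower abdomen. All 15 came from LBNF1 rats of 25 to 27 weeks, an F1 hybrid laboratory strain, and no other treatment or allele is named. How long after irradiation the testes were taken is not stated in the labels. The labels call the samples biological replicates without naming the animal, and p-values therefore cover only the variation among the samples at hand.

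Complement marks targets for removal. C1q binds a target, its partner proteases C1r and C1s start the classical cascade, and C3 is the hub where all routes meet before the terminal components form a pore. Coagulation starts when tissue factor meets plasma factors, ends in thrombin and fibrin, and is held back at vessel walls by thrombomodulin, the endothelial protein C receptor, protein S and tissue factor pathway inhibitor. Fibrin is removed by plasmin, which is made from plasminogen by tissue and urokinase plasminogen activators. Much of the plasma protein of both cascades comes from the liver. In the testis, macrophages of the interstitium are a known source of C1q, and Sertoli cells are known to secrete plasminogen activators and alpha-2-macroglobulin.

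RNA of C1q, C1r and C1s, which start the classical complement route, and of the thrombin regulators Thbd, Procr, Pros1 and Tfpi was higher in irradiated testes on the deposited scale, while coagulation factors V and VIII were lower. Values are log2 signals as deposited and a change is irradiated minus control, so that 1 unit is a doubling. Probe sets as bright as the median of the array, or brighter, in 5 or more of the 15 arrays were tested. Of the 30 genes, 22 passed this filter, and their 22 representative probe sets all passed an adjusted p of 0.05 in limma, 20 higher and 2 lower. Among all 10841 genes tested 85.5% passed, 47.6% higher and 37.9% lower; of all 18711 probe sets tested 83.4% passed. A rise of at least 3 log2 units was measured in 9 of the 22 genes and in 4.43% of all genes. With dim controls set at their array medians, 6 of the 22 reached it. The share of all genes was not counted in that way, so this count has no background beside it. In 20 of the 22 genes, 18 of them higher, the values of the 2 groups did not overlap, against 69.5% of all genes (40.5% higher). The median change was 2.44 over the 22 genes and 0.20 over all genes tested. Control testes were dim on average in 10 of the 22, which passed through the irradiated arrays and had to differ. Of 11 genes at or above the array median in at least 5 arrays of each group, 10 were higher and 1 was lower, with a median of 2.32. Over the 7239 genes with signals like that, 55.0% were higher, 29.4% lower and the median was 0.44.

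The size of these changes depends on how the arrays are set against each other. Centring each array on 13 Sertoli cell markers, which themselves rose, moved the median of all genes to -2.16, and 6.33% of the called genes were then higher, against 55.7% as deposited. Under that centring 10 of the 22 genes were higher and 8 lower. C5ar1, Masp1, F3, F13a1, Plau, Tfpi, Procr, Pros1 and Vwf turned to negative values, while the C1q, C1r, C1s, Cfd, F2r, Plat, Thbd and Fgl2 genes stayed higher and F5 and F8 lower. For the C1q genes, Cfd, Plat and Thbd this rests on measured control values that lay on average below the array median. No bound was taken for them on this scale, so whether they stay higher there is not settled. In whole tissue, more cells of a type and more RNA per cell cannot be told apart.

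**Figure D1:**
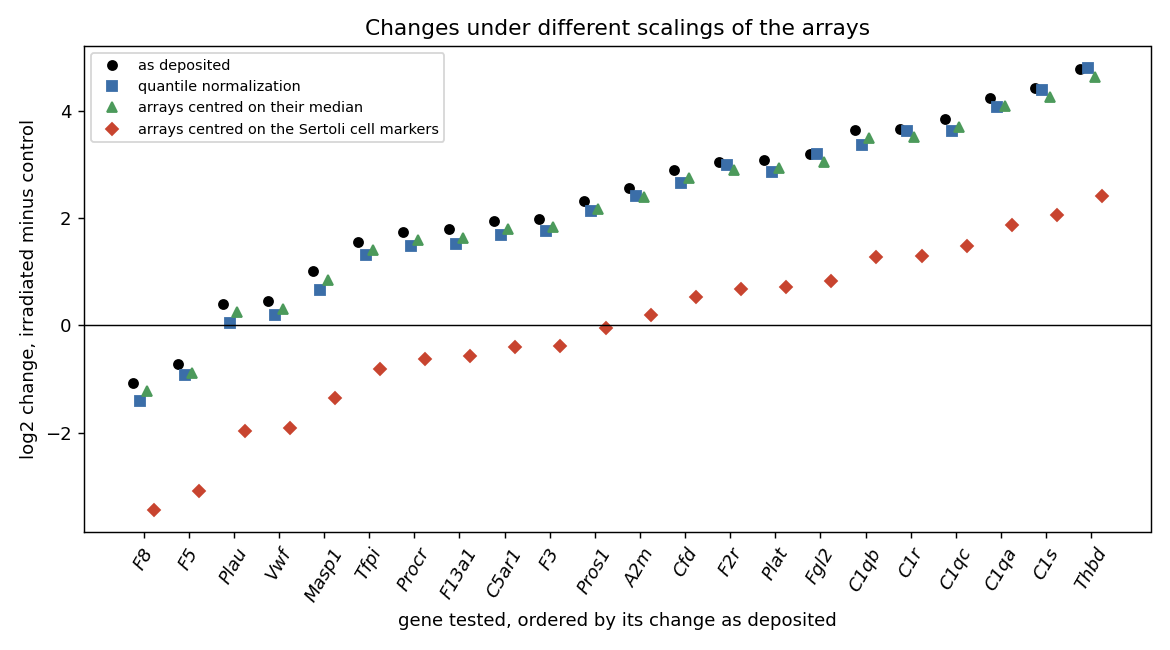
Log2 change, irradiated minus control, of each of the 22 genes tested, ordered along the horizontal axis by the change as deposited, under 4 scalings of the arrays (symbols). Quantile normalization and median centring lay close to the deposited scale, whereas centring on Sertoli cell markers lowered every change and turned 9 of them below 0.

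The arrays of a group were alike. Across the probe sets tested, Pearson's r ran from 0.918 to 0.96 for pairs of control arrays and from 0.958 to 0.972 for irradiated pairs. For mixed pairs it was 0.219 to 0.277. Array medians ran from -1.61 to -1.37 in control and from -1.38 to -1.26 in irradiated testes. No detection calls were used here, so a value below its array's median is treated as dim, and a change against a dim group is given as "at least", with the dim arrays set no lower than their medians. An adjusted p printed beside such a bound comes from the fit of the deposited values and does not test the bound. Where a gene passed the filter through 1 group alone, that p-value is no separate support for a difference. The 10 spermatid markers tested fell in every case, and their summed linear signal was 334 to 515 in control and 0.951 to 3.79 in irradiated arrays. Sertoli (13 of 13 tested) and Leydig cell markers (10 of 10 tested) rose, with summed signals of 31.5 to 43.2 against 136 to 183, and of 7.93 to 10.9 against 98.0 to 119.

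The 3 chains of C1q, the recognition molecule of the classical route, were dim in control testes and bright in irradiated testes. In RefSeq's table for the assembly GRCr8 the genes C1qb, C1qc and C1qa are neighbours on chromosome 5, and C1r and C1s are neighbours on chromosome 4. Promoters, 250 bases before to 50 after the start of the gene, were found in RefSeq for 22 of the 35 genes. Those of C1qa, C1qb and C1r are shown because these genes encode parts of 1 protein complex and rose together. Capitals mark GAGGAA and GGAAGT, which overlap in the recognition sequence of PU.1, the Ets factor of macrophages, on either strand (TTCCTC and ACTTCC on the other).
C1qa, GRCr8 chr5:154419884-154420183, minus strand: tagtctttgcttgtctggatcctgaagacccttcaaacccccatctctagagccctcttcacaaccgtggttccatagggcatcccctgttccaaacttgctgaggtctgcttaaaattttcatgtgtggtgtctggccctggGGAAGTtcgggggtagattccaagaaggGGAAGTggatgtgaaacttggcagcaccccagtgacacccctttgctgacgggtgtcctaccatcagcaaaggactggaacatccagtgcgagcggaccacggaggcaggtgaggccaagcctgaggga
C1qb, GRCr8 chr5:154407778-154408077, minus strand: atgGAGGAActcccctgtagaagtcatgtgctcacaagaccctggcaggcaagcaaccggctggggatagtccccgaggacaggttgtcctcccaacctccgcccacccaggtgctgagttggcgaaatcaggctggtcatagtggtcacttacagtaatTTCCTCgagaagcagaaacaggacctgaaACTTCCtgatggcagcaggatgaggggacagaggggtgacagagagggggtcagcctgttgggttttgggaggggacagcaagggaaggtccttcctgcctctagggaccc
C1r, GRCr8 chr4:159098763-159099062, plus strand: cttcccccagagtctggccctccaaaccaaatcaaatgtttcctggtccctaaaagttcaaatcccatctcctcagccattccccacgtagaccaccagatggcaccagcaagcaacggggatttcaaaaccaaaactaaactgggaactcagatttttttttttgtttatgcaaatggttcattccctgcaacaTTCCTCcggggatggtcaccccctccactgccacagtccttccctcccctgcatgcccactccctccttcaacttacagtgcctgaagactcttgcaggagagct
The C1qa window held GGAAGT at -107 and -79 from the start and no GAGGAA. The C1qb window held GAGGAA at -247 and -90 and GGAAGT at -61, and the C1r window held GAGGAA only. These letters are common: of 33469 promoters of this length 27.6% held GAGGAA and 22.6% GGAAGT, and of the 22 gene promoters found here 8 and 5 did. The AP-1 sequence TGANTCA stood in 5 of the 22 (C3ar1, F2r, F5, Plaur and Procr) and in 7.33% of all promoters. The CACCC box bound by Krueppel-like factors stood in 13 of 22 and 54.9%, the interferon-stimulated response element in 1 (Plau) and 3.92%, and the TATA box TATAAA in 1 (C6) and 14.2%. A match is a description of the letters and not a binding site, and the motifs were chosen with the C1q promoters in view.

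C1qa (probe set 1376652_at) ran from -4.0 to -0.99 with a median of -2.41 in the control arrays, and was 1.88, 1.80, 1.54, 1.87 and 1.77 in irradiated replicates 1 to 5. Only 1 of the 10 control arrays reached its array median, and all 5 irradiated arrays did. Its log2 change was at least 3.20, or 9.18-fold (adjusted p = 2.29e-08, limma). C1qb (1370215_at), from -4.10 to -1.53 with a median of -3.43 in control testes, was 0.36, 0.64, -0.23, 0.52 and 0.59 in irradiated testes, at least 3.59-fold higher (adjusted p = 9.56e-09, limma). C1qc (1373025_at), from -3.67 to -1.19 with a median of -2.14, was 1.59, 1.57, 1.11, 1.52 and 1.44, at least 7.42-fold higher (adjusted p = 1.75e-08, limma). For each chain the groups lay apart, and irradiated replicate 3 was the lowest of the 5. That replicate was also the lowest in 8 of the 13 macrophage markers that rose, among them Cd68, Ptprc, Tyrobp and Laptm5. Among the 20 risen complement and coagulation genes it was the lowest in 8, the C1q chains included, and replicate 2 was the lowest in 7. How often replicate 3 was the lowest over all genes was not counted, so these counts do not tie the C1q genes to the macrophage markers.

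Most macrophage markers, like the C1q genes, were higher in irradiated testes on the deposited scale. So were all tested markers of Sertoli cells, Leydig cells and fibroblasts, and 47.6% of all genes tested. Of 16 markers, all on the array and tested, 13 rose, 2 fell (Adgre1 and Aif1) and 1 did not pass (Cx3cr1), with a median change of 2.24. Their summed linear signal was 15.3 to 19.9 in control and 35.5 to 39.5 in irradiated arrays. Aif1, whose log2 change was -3.25, made up much of the control sum: without it the sum was 6.5 to 8.63 in control and 34.6 to 38.5 in irradiated arrays. Cd68, Cd163, Laptm5 and Ptprc, like C1qb, were dim in every control array, while Csf1r, Mrc1, Ctss and Lyz2 were at or above the median in all 10. The part of macrophages in the C1q values was not tested.

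The proteases C1r and C1s were measured above the array median in every array of both groups. C1r (1383241_at), which cleaves C1s, ran from 0.02 to 0.92 with a median of 0.37 in control and was 4.30, 4.45, 3.93, 3.82 and 3.84 in irradiated testes. The change was 3.65 ± 0.16 (SE), or 12.6-fold (adjusted p = 2.08e-12, limma). C1s (1387893_at), which cleaves C4 and C2, ran from -0.64 to 0.06 with a median of -0.50 in control and was 4.06, 4.12, 4.01, 3.91 and 3.95 after irradiation. Its change was 4.42 ± 0.11 (SE), or 21.3-fold (adjusted p = 2.17e-15, limma). The lowest irradiated array of each protease lay well above the highest control array. Fibroblast markers, 5 of 5 tested higher, had a summed signal of 3.19 to 4.22 in control and 35.8 to 45.2 in irradiated arrays, and their part in the protease values was not tested. Serping1, the inhibitor of C1r and C1s, changed alongside them by 4.55 ± 0.08 (SE, adjusted p = 3.49e-17, limma).

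Partner genes were also compared within the control group. Only 3 of 12 planned pairs had both genes bright in at least 8 of the 10 control arrays. C1s and Serping1 varied together (Pearson r = 0.79, permutation p = 0.00436, adjusted p = 0.0131 over 3 pairs; Spearman rho = 0.82, permutation p = 0.00622, adjusted p = 0.0187). Without the 2 arrays farthest from the C1s median r was 0.42. Leaving them out also narrows the range of C1s, so how far the relation rests on those arrays cannot be told. C1r and C1s did not pass (r = 0.31, permutation p = 0.373, adjusted p = 0.373; rho = 0.15, permutation p = 0.683, adjusted p = 0.683), and r was -0.33 without the 2 farthest arrays. Pros1 and Gas6, both ligands of the Tyro3 and Mertk receptors, did not pass either (r = -0.57, permutation p = 0.105, adjusted p = 0.157, and rho = -0.55, permutation p = 0.104, adjusted p = 0.156). Without the 2 farthest arrays their r was -0.0056.

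Beyond C1, several genes were too dim to measure. C3 (1368000_at), the hub protein, did not pass the filter: its control values ran from -4.51 to -1.12 with a median of -2.19, its irradiated values were -1.66, -1.71, -2.11, -2.19 and -2.16, and 1 of 15 arrays reached its median. The groups overlapped. C6, a component of the terminal pore, and Cfi, the protease that inactivates C3b and C4b, lay below the median in every array, with means of -2.57 ± 1.17 (SD, n = 10) and -2.30 ± 0.56 in control and -2.65 ± 0.15 (SD, n = 5) and -2.38 ± 0.17 in irradiated testes. For these 3 genes no change could be measured on these arrays, which does not show that there was none. Cfd (1388602_at), factor D of the alternative route, ran from -2.38 to -1.29 with a median of -2.14 in control and was 1.04, 1.26, 0.49, 0.60 and 1.01 in irradiated testes, at least 5.03-fold higher (adjusted p = 9.76e-11, limma). Every irradiated value lay above every control value.

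Masp1, a protease of the lectin route, rose in its representative probe set (1390585_at). Control arrays averaged -0.62 ± 0.23 (SD, n = 10) and irradiated arrays 0.38 ± 0.12 (SD, n = 5), and the difference was 1.01 ± 0.11 (SE, adjusted p = 3.82e-07, limma). Its probe set 1389543_at, as bright in control testes, had a change of -0.20 (adjusted p = 0.0558, limma), and the dim 1371116_at was not tested. The Masp1 call therefore holds for 1 probe set only. Of the anaphylatoxin receptors, C5ar1 (1368742_at), the C5a receptor of myeloid cells, ran from -3.49 to -0.60 with a median of -1.95 in control and was -0.34, 0.01, 0.06, -0.22 and 0.17 in irradiated testes, at least 2.49-fold higher (adjusted p = 3.53e-05, limma). C3ar1, the C3a receptor, was dim in all 15 arrays and not tested: it averaged -2.97 ± 0.46 in control and -1.76 ± 0.19 in irradiated testes, and its groups did not overlap.

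**Figure D2:**
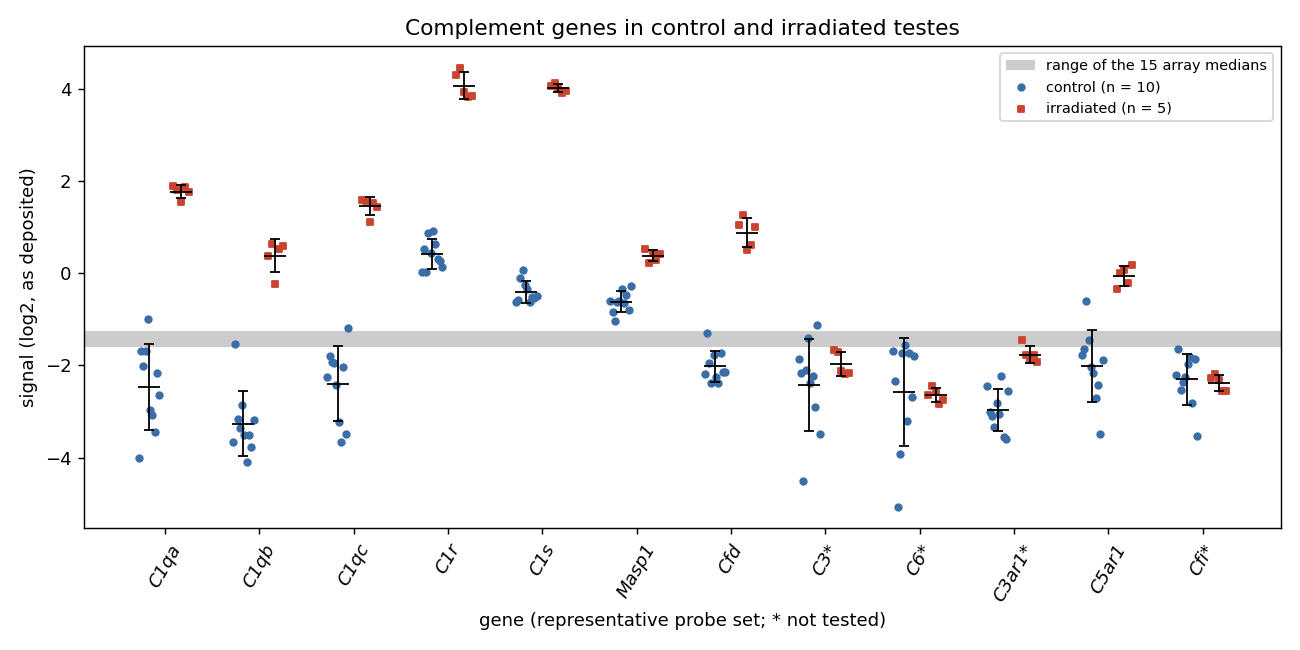
Log2 signal (vertical axis) of 12 complement genes in every control (circles, n = 10) and irradiated array (squares, n = 5), with the mean and SD as black bars and the range of the 15 array medians shaded; genes with an asterisk were not tested. The means of C1qa, C1qb, C1qc and Cfd lie below the shaded range in control and above it in irradiated arrays, though single control arrays lie in or above it. C1r and C1s rise further from above it, and C3, C6 and Cfi stay at or below it in nearly all arrays.

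Other complement genes were read from a wider list. Of 39 listed, 29 were on the array and 21 were tested, of which 9 rose, 7 fell and 5 did not pass (median 0.10). Over all genes tested 47.6% were higher and 37.9% lower, with a median of 0.20, so the counts of this list lay near the background. Vtn, which encodes vitronectin, a binder of the terminal complex, was dim in every control array and at least 4.61-fold higher (adjusted p = 2.64e-16, limma), and Fcna, the lectin ficolin A, was at least 3.53-fold higher (adjusted p = 1.39e-10, limma). Cd55, a membrane protein that breaks up C3 convertases, was at least 7.47-fold lower (adjusted p = 9.31e-12, limma), and its other probe set was not tested. Cd46, another membrane regulator of C3b, was among the 7 that fell, as were C8b and C9 of the terminal pore, properdin (Cfp), Mbl1 and C4bpb. The groups overlapped for C8b, C9, Cfp, Mbl1 and C4bpb but not for Cd46. With no filter on dim probe sets C8b and Cfp did not pass. Cd59b and Cr1l, which encode membrane inhibitors, C1qbp, Clu, Colec12 and Masp2 were among the 9 that rose.

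Thbd, Procr, Pros1 and Tfpi, whose products restrain coagulation, had higher RNA signals in irradiated testes on the deposited scale, and Procr, Pros1 and Tfpi turned below 0 with Sertoli cell centring. Thbd (1375951_at), the receptor that turns thrombin into an activator of protein C, ran from -2.94 to -1.52 with a median of -1.94 in control, dim in every array. In irradiated testes it was 2.89, 2.50, 2.41, 2.78 and 2.93, at least 18.0-fold higher (adjusted p = 1.54e-12, limma). Its other probe sets, 1368900_at and 1368901_at, were also dim in all control arrays and were at least 3.01-fold and 7.16-fold higher. Procr (1372729_at), the endothelial protein C receptor, ran from -2.65 to -1.28 with a median of -1.94 and was -0.03, 0.03, -0.29, -0.40 and -0.48 after irradiation, at least 2.30-fold higher (adjusted p = 4.69e-07, limma).

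Pros1 and Tfpi were bright in both groups. Pros1 (1371037_at), protein S, the cofactor of activated protein C, ran from -0.54 to -0.04 with a median of -0.21 in control and was 2.30, 1.86, 1.95, 2.15 and 2.02 in irradiated testes. Its change was 2.32 ± 0.10 (SE), or 4.99-fold (adjusted p = 1.85e-12, limma). Tfpi (1368323_at), the inhibitor of the tissue factor complex, ran from -0.15 to 0.42 with a median of 0.14 and was 1.77, 1.5, 1.72, 1.79 and 1.75, a change of 1.56 ± 0.09 (SE), or 2.94-fold (adjusted p = 1.14e-10, limma). Its probe set 1389780_at, dim in every control array, was at least 2.21-fold higher. Neither gene's groups overlapped on these probe sets, and with Sertoli cell centring the changes were -0.046 for Pros1 and -0.81 for Tfpi.

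Most endothelial markers, like Thbd, Procr, Pros1 and Tfpi, were higher in irradiated testes on the deposited scale. Of 12 listed markers 11 were tested; 9 rose, Flt1 fell and Egfl7 did not pass, with a median of 2.08. Their summed linear signal was 3.24 to 4.35 in control and 9.99 to 12.7 in irradiated arrays, and Emcn, Kdr, Pecam1 and Sox18 were dim in every control array. Vwf (1389234_at), von Willebrand factor, which endothelial cells and platelets store, changed less: it ran from -1.32 to -0.58 with a median of -1.04 in control and was -0.58, -0.79, -0.24, -0.50 and -0.78 in irradiated testes. The groups overlapped, the change was 0.46 ± 0.12 (SE, adjusted p = 0.00273, limma), and after quantile normalization it did not pass (0.19, adjusted p = 0.14). Peritubular and smooth muscle markers, 8 of 8 tested higher, had a summed signal of 7.89 to 10.8 in control and 26.3 to 35.2 in irradiated arrays. The part of endothelial, peritubular and smooth muscle cells in these values was not tested.

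The procoagulant side was mixed. F3 (1369182_at), tissue factor, was dim in every control array, where it ran from -4.92 to -1.54 with a median of -2.30, and was -0.50, -0.43, -0.65, -0.27 and -0.56 in irradiated testes, at least 1.98-fold higher (adjusted p = 0.000208, limma). F2r (1367899_at), the thrombin receptor PAR1, ran from -0.51 to 0.19 with a median of -0.38 and was 2.69, 2.64, 2.73, 3.00 and 2.65, a change of 3.04 ± 0.12 (SE), or 8.23-fold (adjusted p = 3.13e-13, limma). F13a1, the subunit of factor XIII that cross-links fibrin and is made by macrophages and platelets, was at least 2.66-fold higher in 1369724_at (adjusted p = 8.51e-08, limma) and at least 4.04-fold in its other probe set, 1374779_at. The order of F3, F2r and F13a1 in fold was not measured, since F3 and F13a1 have only bounds.

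Factors V and VIII, the related cofactors that speed the making of thrombin and of factor Xa, were the only tested genes of the 22 that were lower. F8 (1380190_at) ran from 0.73 to 1.36 with a median of 1.09 in control and was 0.06, 0.08, 0.10, -0.20 and 0.03 in irradiated testes. The change was -1.07 ± 0.10 (SE), so that the signal was 2.11-fold lower (adjusted p = 2.65e-08, limma). Its 3 other tested probe sets also passed, with measured changes of -1.08, -0.39 and -0.96 (adjusted p = 0.000483, 0.0183 and 0.00316, limma). The first and last of these were dim in irradiated testes and bound the fall at 1.01-fold and 1.18-fold, and the fifth was dim in all arrays. F5 (1374320_at) ran from -1.05 to -0.49 with a median of -0.71 and was -1.31, -1.40, -1.56, -1.67 and -1.37, below the array median in all 5 irradiated arrays, which makes it at least 1.49-fold lower (adjusted p = 6.83e-06, limma). The groups did not overlap for F5 or for the representative probe set of F8, whereas they overlapped for its other tested probe sets. Markers of spermatocytes (5 of 5 tested) and spermatids fell in the same arrays, and their part in the F5 and F8 values was not tested.

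Liver-type plasma factors were dim only in part. In the wider lists Fgg, C4bpb and C8b reached the array median in all 10 control arrays, whereas Fga, Fgb, F9 and F12 did not pass the filter. F2 (prothrombin), F10 and Plg (plasminogen) did not pass the filter, with control means of -2.23 ± 0.55, -3.77 ± 1.34 and -3.13 ± 0.75 (SD, n = 10) and irradiated means of -3.47 ± 0.63, -4.87 ± 0.66 and -2.47 ± 0.39 (SD, n = 5). Of these genes only F2 reached the array median anywhere, in 2 control arrays. The F2 groups did not overlap, with irradiated testes lower. Of 8 liver markers, all on the array, 3 were tested, of which Hpx rose and Ttr and Ahsg fell; Apoa1, Apoa2 and Fgb were dim in all 15 arrays. Their summed signal was 1.88 to 2.72 in control and 2.02 to 2.21 in irradiated arrays. Platelet markers gave 1 riser (Pf4), 3 that fell (Ppbp, Gp9 and Treml1) and 1 that did not pass (Itga2b) of 5 tested, and the summed signal over the 6 on the array was 2.35 to 2.84 in control and 3.84 to 4.66 in irradiated arrays. That rise rested on Pf4, without which the sum was 1.95 to 2.54 in control and 1.39 to 1.68 in irradiated arrays. Of 3 red cell markers tested Hbb and Alas2 rose and Slc4a1 fell, with a summed signal of 3.02 to 5.08 in control and 8.96 to 15.2 in irradiated arrays. The part of blood cells in the values of the coagulation genes was not tested.

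**Figure D3:**
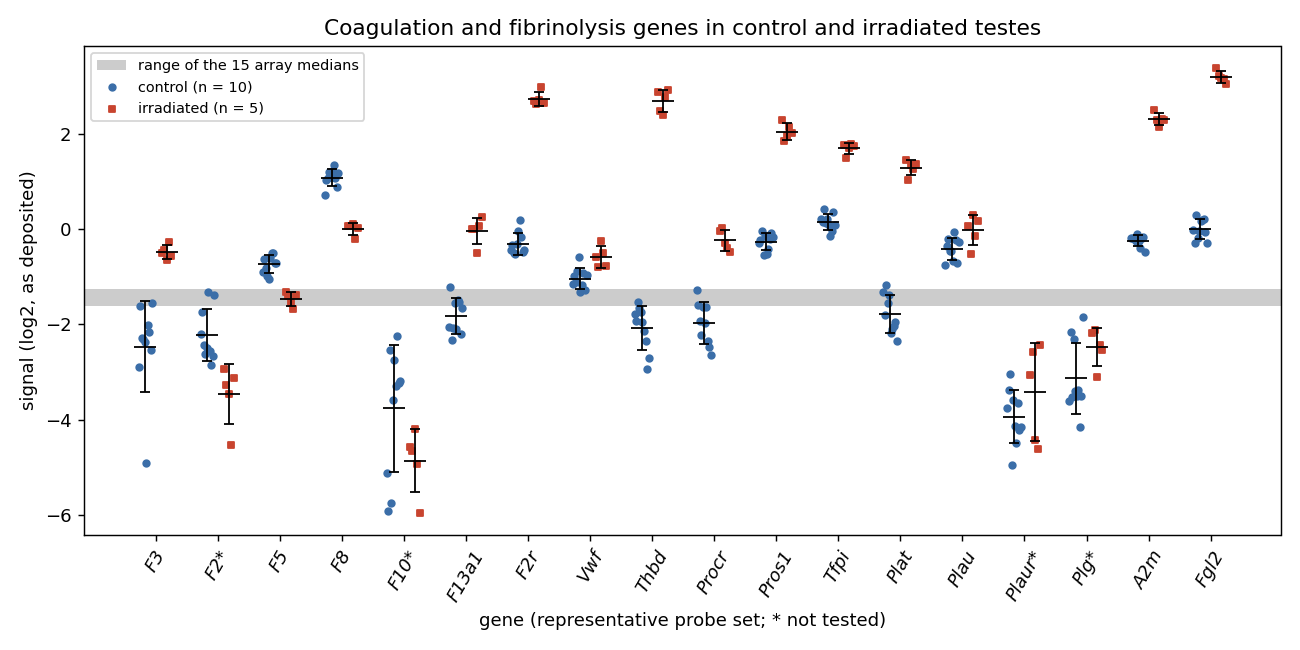
Log2 signal (vertical axis) of 18 coagulation, fibrinolysis and related genes in every control (circles, n = 10) and irradiated array (squares, n = 5), with the mean and SD as black bars and the range of the 15 array medians shaded; genes with an asterisk were not tested. Thbd, F2r, Fgl2, Pros1, A2m, Plat and Tfpi show groups far apart with irradiated testes higher, F5 and F8 show them lower, and Plau and Vwf overlap.

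The plasminogen activators were both measured. Plat (1367800_at), tissue plasminogen activator, ran from -2.34 to -1.17 with a median of -1.88 in control and was 1.45, 1.04, 1.35, 1.27 and 1.37 in irradiated testes, at least 6.53-fold higher (adjusted p = 6.49e-11, limma). Plau (1387675_at), urokinase, ran from -0.75 to -0.06 with a median of -0.40 and was 0.07, -0.52, 0.30, -0.13 and 0.18, so that the groups overlapped. Its change of 0.40 ± 0.14 (SE) passed (adjusted p = 0.0168, limma) but not after quantile normalization (0.04, adjusted p = 0.761), without irradiated replicate 3 (0.32, adjusted p = 0.0616) or 5 (0.35, adjusted p = 0.0505). Its other probe set, 1398287_at, had a change of -0.17 (adjusted p = 0.441, limma). Whether the changes of Plat and Plau differ was not tested. Plaur, the receptor of urokinase, was dim in all arrays on both of its probe sets.

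A2m and Fgl2 rose clearly above their control spread. A2m (1367794_at), alpha-2-macroglobulin, which traps proteases of both cascades, ran from -0.48 to -0.09 with a median of -0.19 in control and was 2.50, 2.31, 2.16, 2.33 and 2.29 in irradiated testes, a change of 2.55 ± 0.08 (SE), or 5.88-fold (adjusted p = 2.71e-14, limma). With arrays centred on Sertoli cell markers its change was 0.19 and did not pass (adjusted p = 0.103). Fgl2 (1392894_at), a fibrinogen-like protein that as a membrane form can cleave prothrombin, ran from -0.29 to 0.29 with a median of -0.03 and was 3.39, 3.22, 3.19, 3.15 and 3.05, a change of 3.20 ± 0.11 (SE), or 9.19-fold (adjusted p = 6.96e-14, limma). Its other 3 probe sets had changes of 2.51, 3.51 and 4.13, all past the threshold.

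**Figure D4:**
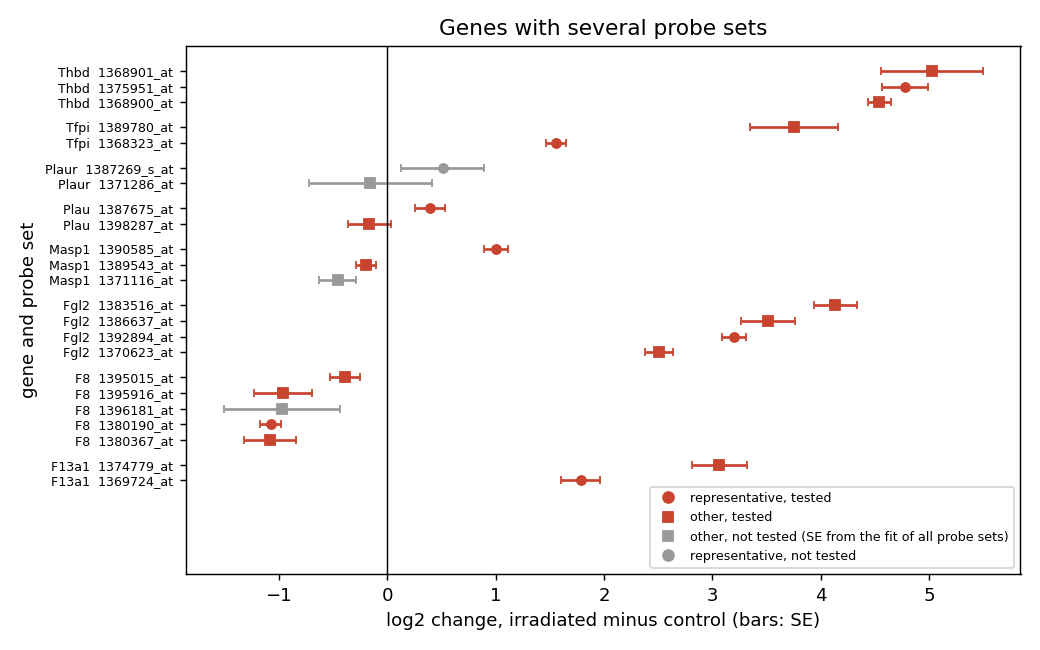
Log2 change, irradiated minus control (horizontal axis, bars are SE), of every probe set of the 8 genes that had several; circles mark the representative probe set, squares the others, and grey ones were not tested. Those of Thbd, Fgl2 and F13a1 lie to the right of 0 and those of F8 to the left. Those of Masp1 and Plau, and the untested ones of Plaur, fall on both sides.

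Other genes of coagulation and fibrinolysis were read from a wider list. Of 57 listed, a list that also held the mannose receptor Mrc1 and Proser2, 46 were on the array and 25 were tested, of which 14 rose, 8 fell and 3 did not pass (median 1.26), beside 47.6% higher and 37.9% lower over all genes tested (median 0.20). The 4 largest measured changes were in Anxa5, a phospholipid binder that shields clotting surfaces (3.15 ± 0.09, SE), S100a10 and Anxa2, which together bind plasminogen and its activator at the cell surface (3.01 ± 0.11 and 2.95 ± 0.10), and the clearance receptor Lrp1 (2.97 ± 0.18), with adjusted p-values of 7.67e-11 or smaller (limma). Second probe sets of Anxa2 and Lrp1 were not tested. Gas6 and its receptors Tyro3, Axl and Mertk, which act in the clearance of dying cells, were all among the 14 that rose. So were Ggcx and Vkorc1, the enzymes of vitamin K-dependent carboxylation. The 8 that fell included the fibrinogen chain gene Fgg, Serpina1, Serpina5 (the protein C inhibitor), Serpind1 (heparin cofactor II, an anticoagulant inhibitor of thrombin) and F2rl1, a relative of the thrombin receptor. Proc and Serpinc1, which encode the anticoagulants protein C and antithrombin, did not pass the filter.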

How the data were processed

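For each array the authors deposited log2 signals, which the submitters' processing notes credit to MAS5 without a version. The scaling and the zero point were not given in the sources used here. Base 2 was inferred from the hybridisation controls, which rose by 0.895 log2 units per doubling of concentration in control and 0.916 in irradiated arrays. Total RNA, 10 µg per labelling, was hybridised as biotin-labelled cRNA, per the labels' protocols. No array column was left unused (0), and arrays carry no read depth, so that their number limits the precision.

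Genes were named from the platform annotation of 2016, and probe sets with several symbols named no gene. Of 31042 non-control probe sets, 18711 passed the filter described above and entered one linear model with moderated variances (limma 3.58.1, run in R 4.3.3; 2-sided, no covariate). Benjamini-Hochberg adjustment ran over all of them, and 15598 (83.4%) passed 0.05. The fit was also run on simulated arrays in which few probe sets were changed, which does not test how the arrays were scaled. The probe set with the highest mean over the 15 arrays stood for a gene. Where a group's mean lay below the mean of its array medians, its arrays were set no lower than their medians for the "at least" values. Summed signals add 2 to the power of the log2 value over the markers on the array. Correlations were tested with 100000 resamples (scipy 1.17.1).

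The genes, lists and tests were chosen with earlier results of these data known. Every listed gene on the array is named, with values for those tested; of the other pathway genes the 4 with the largest absolute change of each list are given with values, and further ones by direction only. Control and irradiated samples share the numbers 1 to 5 in their titles, but no pair of same-numbered samples deviated together (0 of 5 correlations over 0.1), so that they were not treated as pairs. Alternatives covered the scaling, the filter, the pseudocount, array weights, the prior, the probe set choice and left-out arrays; the setting of values below the array median to that median was added after the data were seen.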

Additional observations from a re-analysis of the deposited data

Results flagged for a closer look

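In 5 of 60 groups of arrays checked for the named genes, the highest or lowest array lay far from the rest of its group by Dixon's test. Chance gives about 1 in 20. C1qb was -1.53 in control replicate 2, where the other control arrays lay between -4.10 and -2.85. F3 was -4.92 in control replicate 6, where the others lay between -2.90 and -1.54; without that array its measured change was 1.71. In irradiated replicate 4, F2r was 3.00 against 2.64 to 2.73 in the others, and F8 was -0.20 against 0.03 to 0.10. Tfpi was 1.5 in irradiated replicate 2 against 1.72 to 1.79. Leaving out any of these arrays ended none of these 5 calls.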

How the results depend on the processing

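With each array left out in turn, between 21 and 22 of the 22 genes passed (19 to 20 higher, 2 lower), the median change ran from 2.38 to 2.47, and between 15217 and 15649 probe sets passed, against 15598. The count was also 22 without control replicates 6, 7 and 8, which had the largest 3' to 5' actin differences. A replicate block, which the pairing check does not support, left 21 genes and 15123 probe sets past the threshold; Vwf did not pass (0.36, adjusted p = 0.0758), and the other 21 calls held. The median change of 2.44 became 2.27 after quantile normalization, 2.28 after median centring, 1.76 with no filter (30 genes), 3.06 with a filter at the 75th percentile (14 genes), 1.60 with a pseudocount of 0.5, 2.61 with probe sets averaged and 2.08 with values below the array median set to it. That stricter filter tested fewer genes, and 14 passed, 13 higher and 1 lower, with 9442 probe sets past the threshold. Under it 3516 of all 7199 genes were higher and 3018 lower, so most genes passed there too. With no filter 21 of the 30 genes were higher, 3 were lower (F2, F5 and F8) and 6 did not pass. Of all 14217 genes in that setting 5787 were higher and 4896 lower.

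Centring on Sertoli cell markers gave 10 higher and 8 lower genes and a median of 0.072. There the changes were -0.41 for C5ar1, -1.36 for Masp1, -0.38 for F3, -0.58 for F13a1, -1.97 for Plau, -0.81 for Tfpi, -0.63 for Procr, -0.046 for Pros1 and -1.91 for Vwf, by the construction of that scale. Plau did not pass after median centring (0.24, adjusted p = 0.0926) or with probe sets averaged (0.11, adjusted p = 0.374). Signals below the array median limit what can be said of C3, C6, Cfi, C3ar1, F2, F10, Plg and Plaur.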
